A study of Mus musculus with 28 samples.

Results

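The 5 genes described here, Cybb, Cyba, Ncf1, Ncf4 and Rac2, encode parts of the NADPH oxidase of phagocytes, and they were taken by symbol from a list of members, not by their values. They are 5 of the 55487 gene IDs in each library, and all 5 were among the 13631 genes that passed the filter on low values (at least 1 TPM in at least 4 libraries). The values are TPM, in which each library's transcript abundances, corrected for transcript length, are scaled to a fixed total. RNA was sequenced from wild-type mouse bone marrow-derived macrophages in 28 libraries, 7 groups of 4. One group, M0, was cultured for 48 h with no polarizing cytokine, and its labels mention neither T cells nor uptake. In the other groups macrophages were kept for 48 h with apoptotic T cells and 50 ng/mL of either IFN-γ or IL-10, and were then sorted. The sort gave, for each cytokine, Treg-phagocytic macrophages (uptake of regulatory T cells), Tconv-phagocytic macrophages (uptake of conventional CD4 T cells) and non-phagocytic macrophages (no uptake). The T cells had been killed with ATP or NAD+ and stained with a fluorescent antibody to CD4. Its dye, BV421 or Ax647, is given in the titles of the phagocytic libraries. The dye in the title and in the library name disagree for 8 of the Treg-phagocytic libraries and for 0 of the 8 Tconv-phagocytic ones. The names of libraries below use the titles. Nothing in the labels says that replicates came from separate animals or cultures, so p-values measure only the spread between these libraries, which may be technical.

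The phagocyte NADPH oxidase moves electrons from NADPH across the membrane of a phagosome or of the cell to oxygen, which yields superoxide. Its membrane part, flavocytochrome b558, is a dimer of the electron-carrying subunit made by Cybb (gp91phox, also called Nox2) and the smaller partner made by Cyba (p22phox). In a resting cell the cytosolic subunits are kept apart from it. On activation, kinases such as protein kinase C phosphorylate the organizer subunit made by Ncf1 (p47phox), which then docks on p22phox. The Ncf4 product (p40phox) binds a phosphoinositide of the phagosome membrane, and the GTPase Rac2, or its relative Rac1, joins in its GTP-bound form. In macrophages the oxidase serves in killing of microbes and in LC3-associated phagocytosis, a process also used on engulfed dead cells. IFN-γ is known as an inducer of oxidase activity in macrophages.

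Limma was run on log2 of scaled TPM plus 1 over all 13631 genes, with only the groups compared in the fit. A gene was called where its Benjamini-Hochberg adjusted p was under 0.05. Every fold change below is a log2 value on this scale, with its standard error (SE), unless TPM as deposited are named. The mean log2 scaling factor was -0.14 in IFN-γ non-phagocytic, -0.09 in IFN-γ Tconv-phagocytic and -0.18 in IFN-γ Treg-phagocytic libraries, against 0.13 in M0 and 0.06 to 0.15 in the IL-10 groups. Changes between IFN-γ and the other groups are therefore relative to a shift, and values without scaling are given for the members in them. The files hold no read counts. Relative depth, read from the steps of low values, taken against the deepest library, was 11.1% to 23.9% with IFN-γ, 50.2% to 92.3% with IL-10 and 69.8% to 100% for M0. With IFN-γ it was 11.1% to 19.6% in Treg-, 20.6% to 23.9% in Tconv- and 18.3% to 22.3% in non-phagocytic libraries. With IL-10 these ranges were 50.2% to 65.1%, 75.6% to 92.3% and 51.7% to 81.9%. Treg- and Tconv-phagocytic libraries thus did not overlap in depth, and its part in their differences was not tested. The summed TPM of 10 macrophage markers was 21251 to 21727 in IFN-γ Treg-phagocytic libraries, above all 24 others (16900 to 21075). The summed TPM of 14 T cell markers was 460.3 to 860.3 in IFN-γ libraries, the non-phagocytic ones included, 82.8 to 210.1 in IL-10 libraries and 56.6 to 149.3 in M0. The 12 neutrophil markers summed to 34.0 to 78.1 TPM, with the highest group median in IFN-γ non-phagocytic libraries (72.9). Ly6g, 1 of these markers, was at 0 in all 12 IFN-γ libraries, the shallowest, and in all 4 IL-10 non-phagocytic ones. The 6 stromal markers summed to 3.09 to 11.45 TPM with IFN-γ, 28.4 to 163.6 with IL-10 and 116.0 to 135.0 in M0, so that they moved with the cytokine, and their part in its comparisons was not tested.

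All 5 genes were abundant in every library. Cyba had a mean of 1849 TPM over the 28 libraries, the 74th highest mean of the 13631 genes. The other members had means close to each other, 219.3 TPM for Cybb, 210.9 TPM for Ncf1, 208.5 TPM for Ncf4 and 256.2 TPM for Rac2. TPM is per transcript length, and on that scale Cyba stood above its membrane partner Cybb in every library. From the lowest to the highest library the range was narrow for each gene, 1.54-fold for Cyba, 1.63-fold for Cybb, 1.84-fold for Ncf1, 1.90-fold for Ncf4 and 2.17-fold for Rac2.

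**Figure D1:**
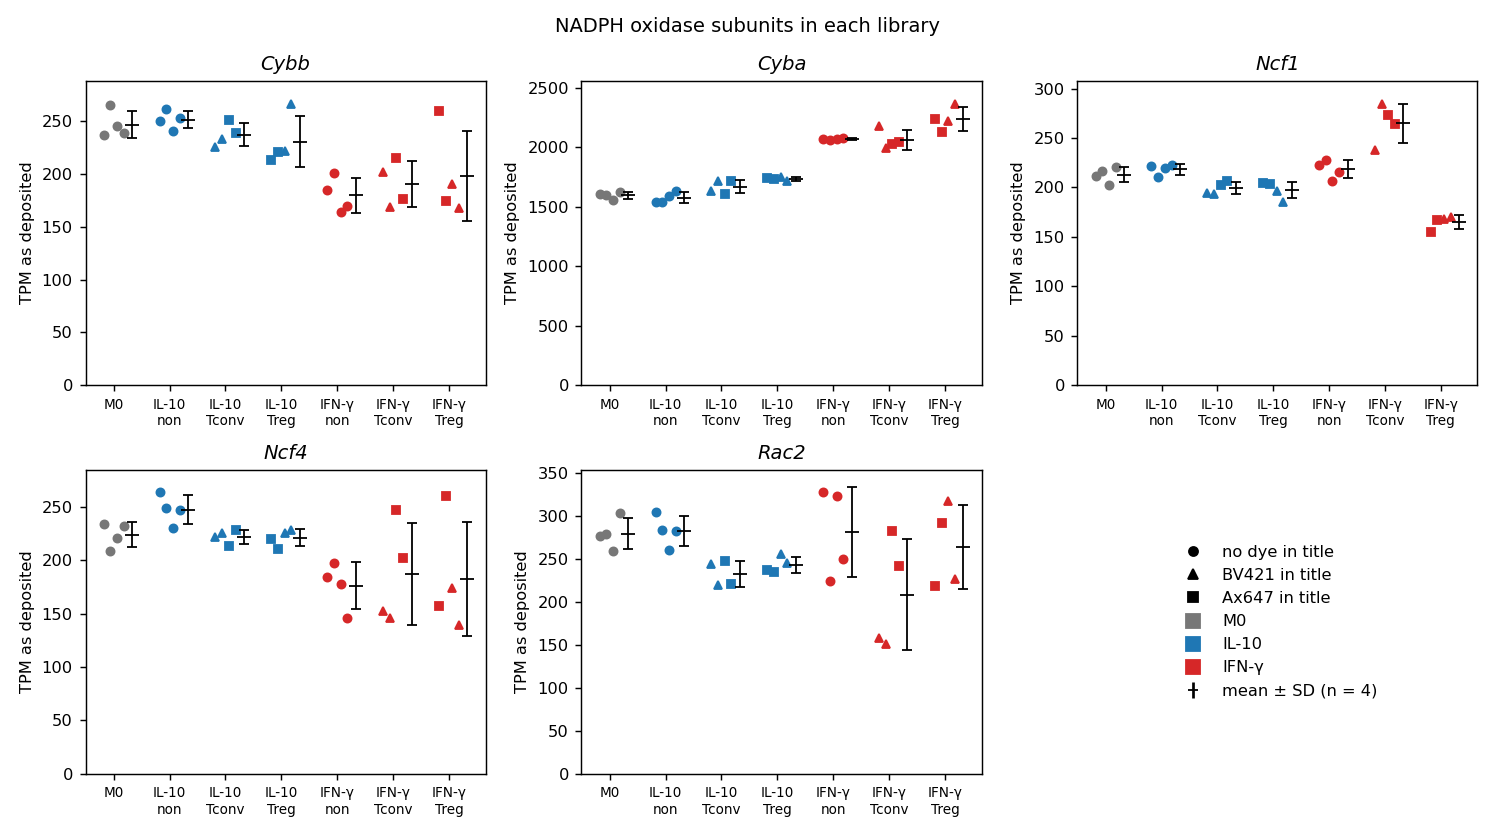
TPM as deposited of the 5 genes in each of the 28 libraries, by group, on axes that start at 0. Points are libraries, shapes give the dye of the title, and the black bars are the mean ± SD of 4 libraries. Ncf1 is lowest in the 4 IFN-γ Treg-phagocytic libraries (154.5 to 170.1) and highest in the 4 IFN-γ Tconv-phagocytic ones (238.1 to 285), while Cyba is at least 1990.2 in all 12 IFN-γ libraries and at most 1750.1 in all others.

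The 250 bases before the RefSeq start of transcription (GRCm38.p6) were read for the members that have an entry, 3 of 5, to set their sequence beside the response to IFN-γ. All 3 genes lie on the minus strand, and the windows are chr5:134229626-134229875 for Ncf1, chr8:122432941-122433190 for Cyba and chrX:9469325-9469574 for Cybb. Searched on both strands were GAAANNGAA (a short form of the sites bound by interferon regulatory factors), GAGGAA (a core of PU.1 and other ETS factors) and GGGCGG (the GC box). The capitals mark matches to the first 2 of these.
Ncf1: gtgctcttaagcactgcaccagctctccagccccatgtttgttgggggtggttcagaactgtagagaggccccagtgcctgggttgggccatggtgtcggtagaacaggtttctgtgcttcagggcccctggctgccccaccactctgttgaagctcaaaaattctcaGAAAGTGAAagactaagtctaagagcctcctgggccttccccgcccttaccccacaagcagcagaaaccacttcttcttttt
Cyba: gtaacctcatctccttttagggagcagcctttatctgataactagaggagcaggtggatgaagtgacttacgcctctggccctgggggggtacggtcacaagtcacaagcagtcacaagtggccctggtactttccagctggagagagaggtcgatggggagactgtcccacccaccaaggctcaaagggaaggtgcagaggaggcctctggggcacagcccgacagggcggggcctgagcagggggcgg
Cybb: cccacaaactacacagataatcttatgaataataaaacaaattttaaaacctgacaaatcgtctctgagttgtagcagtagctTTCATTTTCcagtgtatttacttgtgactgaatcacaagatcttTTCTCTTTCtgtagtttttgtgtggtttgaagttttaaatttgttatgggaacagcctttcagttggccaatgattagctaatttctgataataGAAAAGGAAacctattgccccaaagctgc
The Ncf1 window held 1 match to GAAANNGAA, GAAAGTGAA, which begins 82 bases before the start. The Cybb window held 3 matches to GAAANNGAA, which begin 167, 123 and 29 bases before the start. The Cyba window held no match to GAAANNGAA or GAGGAA and 2 GC boxes, which begin 24 and 6 bases before the start. The Ncf1 window also held 1 GC box, which begins 42 bases before the start. Of 32851 windows of the same length, 7.13% held GAAANNGAA, 23.3% GAGGAA and 32.7% GGGCGG. A match describes letters only, and binding was not measured.

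Cyba (ENSMUSG00000006519; mm10 chromosome 8, 122424776 to 122432930, minus strand) makes p22phox, which holds gp91phox in the membrane and is the docking site of p47phox. It was higher under IFN-γ in every comparison of the cytokines. IFN-γ non-phagocytic libraries held 2067, 2065, 2071 and 2080 TPM. IL-10 non-phagocytic libraries held 1536, 1538, 1594 and 1629 TPM, and M0 libraries 1604, 1598, 1554 and 1627 TPM. Every IFN-γ library lay above every library of the other groups, and the 4 non-phagocytic IFN-γ values were the closest together of any group (SD 6.79 TPM). Cyba rose by 0.68 (SE 0.028, limma adjusted p 1.59e-07) in IFN-γ against IL-10 non-phagocytic libraries and by 0.65 (SE 0.026, limma adjusted p 2.16e-07) against M0, comparisons that share the IFN-γ libraries, and of which the one with M0 can differ by co-culture and sorting as well. Without scaling the same differences were 0.40 and 0.38, and were also called. Among Tconv-phagocytic libraries Cyba was higher under IFN-γ by 0.45 (SE 0.045, limma adjusted p 3.59e-05), and among Treg-phagocytic ones by 0.61 (SE 0.042, limma adjusted p 1.44e-05). Without scaling these were 0.30 (limma adjusted p 0.000122) and 0.37 (limma adjusted p 4.74e-05).

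Cyba was also higher in macrophages that had taken up T cells with IL-10. IL-10 Treg-phagocytic libraries held 1742, 1735, 1750.1 and 1714 TPM, all above the 4 non-phagocytic ones. IL-10 Tconv-phagocytic libraries held 1630.1, 1714, 1609 and 1719 TPM, of which 1 lay under the highest non-phagocytic library. On the fitted scale Cyba rose by 0.22 (SE 0.025, limma adjusted p 0.00139) with Treg uptake and by 0.17 (SE 0.031, limma adjusted p 0.0189) with Tconv uptake. The second call was lost without scaling (0.08, limma adjusted p 0.13), without a filter, and without any of 4 single libraries, IL-10 non-phagocytic 1 or 2 or Tconv-phagocytic BV421-2 or Ax647-2 (limma adjusted p 0.0525 to 0.0574). Treg- and Tconv-phagocytic IL-10 libraries overlapped, with a difference of 0.05 (95% confidence interval -0.00322 to 0.11, limma adjusted p 0.386). T cell marker sums were 177.5 to 210.1 TPM in IL-10 Treg-phagocytic, 113.7 to 159.3 in Tconv-phagocytic and 82.8 to 96.3 in non-phagocytic libraries, so that they moved with Cyba here, and their part in it was not tested. The summed TPM of 6 stromal markers was 28.4 to 32.3 in these Treg-phagocytic, 151.2 to 163.6 in Tconv-phagocytic and 83.1 to 87.6 in non-phagocytic libraries, an order unlike that of Cyba. Of these markers 6 of 6 were called lower in Treg- than in Tconv-phagocytic libraries, where 1.39% of all genes were called. In such bulk libraries a change in the share of cells of a type and a change in RNA per cell cannot be told apart.

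With IFN-γ, Cyba stood at 2238, 2130, 2219 and 2368 TPM in Treg-phagocytic and at 2180, 1990, 2025 and 2048 TPM in Tconv-phagocytic libraries. The 2 groups overlapped in TPM and not after scaling. The difference of 0.21 (SE 0.057, limma adjusted p 0.048) was called, but not without scaling (0.12, limma adjusted p 0.118), nor in 7 of 8 fits that left out 1 library, those without any single Treg-phagocytic library and without Tconv-phagocytic BV421-2, Ax647-1 or Ax647-2 (limma adjusted p 0.0703 to 0.127). Against non-phagocytic libraries the Treg-phagocytic ones did not overlap and were 0.15 higher (SE 0.044, limma adjusted p 0.0822). That difference was not called on the main scale, and it was called with median-of-ratios scaling (0.19, limma adjusted p 0.0288) and with factors from genes of at least 1 TPM in all libraries (0.18, limma adjusted p 0.0315). The Tconv-phagocytic libraries differed from non-phagocytic ones by -0.06 (SE 0.043, limma adjusted p 0.825).

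Cybb (ENSMUSG00000015340; mm10 chromosome X, 9435252 to 9487771, minus strand) makes gp91phox, the subunit that carries the electrons. In TPM it was lower in IFN-γ non-phagocytic libraries, at 184.5, 201.3, 163.9 and 169.7, than in IL-10 non-phagocytic ones, at 250.3, 261.3, 241.2 and 253.5, or M0, at 236.8, 265.3, 245.9 and 239.2. The groups did not overlap in TPM, but after scaling they did. The fitted change against IL-10 was -0.20 (SE 0.066, limma adjusted p 0.0303), and without scaling -0.49 (limma adjusted p 0.000192). This call was lost with factors from genes of at least 1 TPM in all libraries (limma adjusted p 0.0713), without a filter (limma adjusted p 0.0862), in both models of all 28 libraries and in 5 of 8 fits without 1 library, which left out IFN-γ non-phagocytic 3 or 4 or IL-10 non-phagocytic 1, 2 or 4 (limma adjusted p 0.0575 to 0.0819). Against M0 the change was -0.19 (SE 0.071, limma adjusted p 0.0521), and without scaling -0.46 (limma adjusted p 0.000448). It was called without IFN-γ non-phagocytic library 2 (-0.24, limma adjusted p 0.0129) and with a filter of 5 TPM (limma adjusted p 0.0441).

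Cybb differed little with uptake. IFN-γ Treg-phagocytic libraries held 260.1, 174.7, 190.5 and 167.4 TPM, with Ax647-1 far above the other 3. IFN-γ Tconv-phagocytic libraries held 201.6, 168.5, 215.4 and 176.5 TPM, within the range of the Treg-phagocytic ones. The difference between them was 0.13 (95% confidence interval -0.17 to 0.44, limma adjusted p 0.579). This interval leaves room for changes larger than those called for Cyba in comparisons of uptake. With IL-10, Treg-phagocytic libraries held 213.6, 220.6, 221.8 and 266.8 TPM and Tconv-phagocytic ones 225.8, 233.6, 251.6 and 238.9 TPM. These overlapped as well, with a difference of -0.05 (95% confidence interval -0.20 to 0.11, limma adjusted p 0.816). Between IFN-γ and IL-10, the difference was -0.17 (SE 0.079, limma adjusted p 0.0921) among Tconv-phagocytic and 0.01 (SE 0.124, limma adjusted p 0.973) among Treg-phagocytic libraries, and -0.32 and -0.23 without scaling. The first was called without scaling (limma adjusted p 0.00642) and without IFN-γ Tconv-phagocytic Ax647-1 (-0.23, limma adjusted p 0.0355).

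The ratio of Cybb to Cyba within a library needs no scaling between libraries. It was 0.160 ± 0.0082 (SD, n = 4) in IL-10 non-phagocytic libraries and 0.155 ± 0.0091 (SD, n = 4) in M0. In the IFN-γ groups it was 0.0869 ± 0.0083 (SD, n = 4) without uptake, 0.0924 ± 0.0099 (SD, n = 4) with Tconv uptake and 0.0887 ± 0.0194 (SD, n = 4) with Treg uptake. All 12 IFN-γ libraries (0.0707 to 0.116) lay below all 16 others (0.123 to 0.170). The log2 difference between IFN-γ and IL-10 was -0.88 for non-phagocytic, -0.63 for Tconv-phagocytic and -0.60 for Treg-phagocytic libraries, and between IFN-γ non-phagocytic libraries and M0 it was -0.84. Each had an exact permutation p of 0.0286 (two-sided), the smallest that 4 against 4 libraries can give, and an adjusted p of 0.0786 over the 22 tests of ratios, so none passed the threshold after adjustment. Within IL-10 the ratio was 0.143 ± 0.0093 (SD, n = 4) with Tconv uptake and 0.133 ± 0.0152 (SD, n = 4) with Treg uptake, log2 differences of -0.17 and -0.27 from non-phagocytic libraries (exact permutation p 0.0857 for each, adjusted 0.189).

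**Figure D2:**
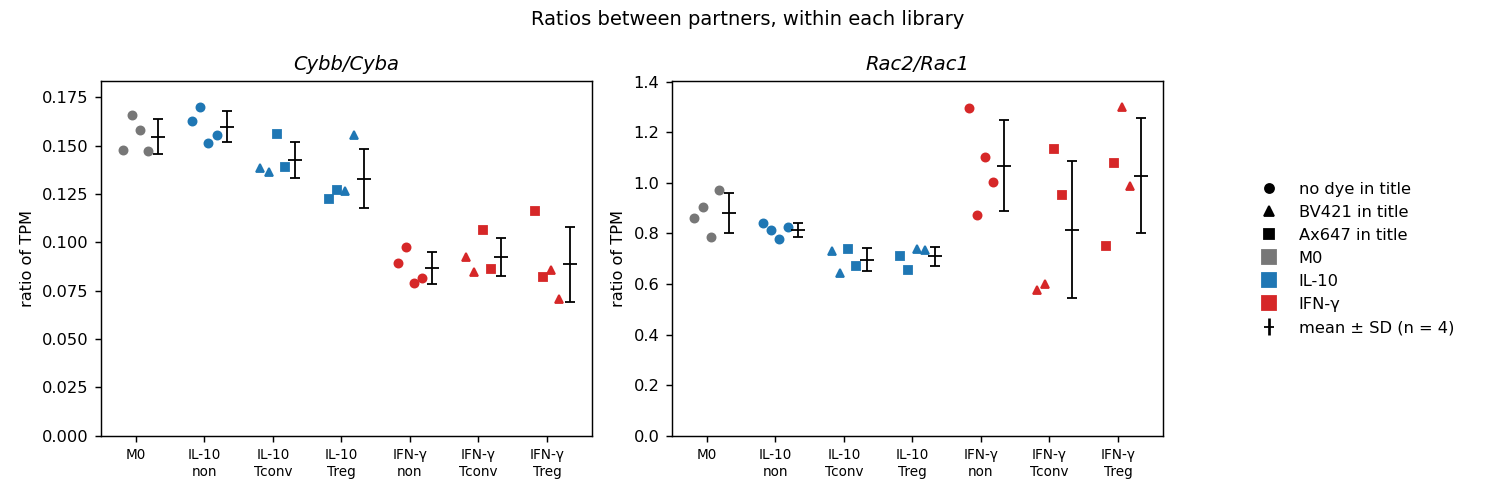
Ratio of TPM of Cybb to Cyba (left) and of Rac2 to Rac1 (right) in each of 28 libraries, by group, with the mean ± SD of 4 libraries in black. The Cybb to Cyba ratio is at most 0.116 in all 12 IFN-γ libraries and at least 0.123 in all others, while the Rac2 to Rac1 ratio spreads from 0.576 to 1.30 in IFN-γ libraries.

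Ncf1 (ENSMUSG00000015950; mm10 chromosome 5, 134220053 to 134229625, minus strand) makes p47phox, the organizer that carries the cytosolic subunits to the membrane. Of the 5 members it had the largest called change by the kind of T cell taken up, and this was with IFN-γ. With IFN-γ, Treg-phagocytic libraries held 154.5, 167.4, 167.8 and 170.1 TPM. Tconv-phagocytic libraries held 238.1, 285, 273.4 and 263.8 TPM, and non-phagocytic ones 222.4, 228, 206.8 and 216 TPM. The 3 groups did not overlap, in the order Tconv-phagocytic, non-phagocytic, Treg-phagocytic. Ncf1 fell by 0.59 on the log2 scale (SE 0.066, limma adjusted p 0.00196) in Treg- against Tconv-phagocytic libraries, to 0.666 of the level there, and by 0.36 (SE 0.061, limma adjusted p 0.0114) against non-phagocytic ones. The first call held in all 23 alternative fits, with adjusted p from 1.86e-09 to 0.0184. The second was lost in 1 of 20 alternative fits. Of 10 macrophage markers 4 were called higher and 1 lower with Treg uptake in each of these comparisons, where 11.7% and 8% of all genes were called. The marker sum was higher as well, as given above, and the part of these markers in the change of Ncf1 was not tested. All Treg-phagocytic libraries were also shallower than all Tconv-phagocytic ones, and the part of depth was not tested. Tconv-phagocytic libraries were 0.22 above non-phagocytic ones (SE 0.057), which was not called (limma adjusted p 0.596), although all 4 were higher.

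With IL-10 Ncf1 was not called for the kind of T cell taken up. Treg-phagocytic libraries held 204.2, 203.4, 196.7 and 185.7 TPM, Tconv-phagocytic ones 194.3, 193.9, 202.6 and 206.1 TPM, and non-phagocytic ones 222, 210.4, 219.3 and 222.6 TPM. The phagocytic groups overlapped, with a difference of -0.02 (95% confidence interval -0.10 to 0.07, limma adjusted p 0.911). Both lay below the non-phagocytic libraries in TPM and overlapped them after scaling, with differences of -0.06 (limma adjusted p 0.319) and -0.05 (limma adjusted p 0.399). Without scaling these were -0.15 and -0.13, and both were called. The effect of Treg against Tconv uptake on Ncf1 differed between IFN-γ and IL-10 by -0.57 (SE 0.078, limma adjusted p 0.000171), and that of Treg uptake against none by -0.30 (SE 0.074, limma adjusted p 0.0172), a call lost in 1 of 28 alternative fits. For Tconv uptake against none the difference was 0.27 (SE 0.066, limma adjusted p 0.0501), not called, and with factors from genes of at least 1 TPM in all libraries it was called (limma adjusted p 0.0495), as it was without scaling (0.41, limma adjusted p 0.0126), with a filter of 5 TPM (limma adjusted p 0.0424), with pseudocount 5 (limma adjusted p 0.0475), and without IFN-γ non-phagocytic library 2 (limma adjusted p 0.042) or Tconv-phagocytic BV421-1 (limma adjusted p 0.0118).

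Between the cytokines, Ncf1 was 0.56 higher under IFN-γ among Tconv-phagocytic libraries (SE 0.050, limma adjusted p 1.9e-05) and 0.41 higher without scaling. Among Treg-phagocytic libraries the difference was -0.02 (SE 0.058, limma adjusted p 0.846), and without scaling -0.26 (limma adjusted p 0.00219). Among non-phagocytic libraries it was 0.28 higher (SE 0.043, limma adjusted p 0.000582), which turned to -0.00240 (limma adjusted p 0.963) without scaling. M0 libraries held 211.6, 216.7, 202.7 and 221 TPM, a range that overlapped that of the IFN-γ non-phagocytic ones. The fitted rise of 0.30 against M0 (SE 0.048, limma adjusted p 0.000693) became 0.03 (limma adjusted p 0.515) without scaling.

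Ncf4 (ENSMUSG00000071715; mm10 chromosome 15, 78244801 to 78262580, plus strand) makes p40phox, which binds a phosphoinositide of the phagosome membrane. Its libraries lay close together outside IFN-γ, with 208.8 to 233.7 TPM in M0 and 210.8 to 263.6 TPM over the IL-10 groups. IFN-γ Tconv-phagocytic libraries held 152.6 and 146 TPM with BV421, and 247.4 and 202.2 TPM with Ax647. IFN-γ Treg-phagocytic libraries held 156.7 and 259.8 TPM with Ax647, and 174.3 and 139 TPM with BV421. The coefficient of variation was 25.3% and 29.4% in these groups and 3.0% to 5.6% in the IL-10 groups. Treg-phagocytic Ax647-2, with the highest of these values, was the shallowest library of all (11.1% of the deepest), and the part of depth in this spread was not tested. Without it Ncf4 was called lower with IFN-γ than with IL-10 among Treg-phagocytic libraries (-0.26, limma adjusted p 0.017), where the full groups gave -0.07 (SE 0.171, limma adjusted p 0.766), and -0.32 without scaling (limma adjusted p 0.158). Among Tconv-phagocytic libraries the difference was -0.13 (limma adjusted p 0.473), and -0.28 without scaling (limma adjusted p 0.143). IFN-γ non-phagocytic libraries held 184.7, 197.3, 177.5 and 145.5 TPM, all below M0 and IL-10 in TPM but not after scaling. With all libraries and scaling Ncf4 was called in 0 of the 14 comparisons by limma, and had an unadjusted p under 0.05 in 2 of them. Without scaling it was called in IFN-γ non-phagocytic libraries against M0 (-0.35, limma adjusted p 0.00816, where the scaled change was -0.08) and in IL-10 Treg-phagocytic against non-phagocytic ones (-0.16, limma adjusted p 0.0412, where it was -0.08), besides the comparison of IFN-γ with IL-10 that follows. Its difference in Treg- against Tconv-phagocytic libraries was 0.05 with IFN-γ (95% confidence interval -0.47 to 0.56) and -0.01 with IL-10 (95% confidence interval -0.08 to 0.07). Against IL-10, IFN-γ non-phagocytic libraries differed by -0.21 (SE 0.086, limma adjusted p 0.07), and without scaling by -0.49 (limma adjusted p 0.00124). Without IFN-γ non-phagocytic library 2 that difference was called on the main scale (-0.27, limma adjusted p 0.0298). In IL-10 non-phagocytic libraries against M0 it differed by 0.13 (SE 0.048, limma adjusted p 0.0843), and without IL-10 non-phagocytic library 3 by 0.16, which was called (limma adjusted p 0.041).

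Rac2 (ENSMUSG00000033220; mm10 chromosome 15, 78559167 to 78572783, minus strand) makes the GTPase found in blood cells that joins the complex when bound to GTP. The edge of its gene nearer to Ncf4, which is its 3′ end, lies 296587 bases from the end of Ncf4 on the same chromosome. M0 libraries held 277.3, 279.4, 259.4 and 303.5 TPM. IL-10 libraries held 304.7, 283.7, 261.3 and 283.1 TPM without uptake, 243.9, 219.7, 247.8 and 220.7 TPM with Tconv uptake and 237.6, 235.1, 255.6 and 245.2 TPM with Treg uptake. All 8 phagocytic IL-10 libraries were below all 4 non-phagocytic ones in TPM. On the fitted scale the differences were -0.20 (SE 0.056, limma adjusted p 0.0841) for Tconv and -0.14 (SE 0.045, limma adjusted p 0.0956) for Treg uptake, neither called. Without scaling they were -0.28 and -0.22 (limma adjusted p 0.0234 and 0.0182), and without IL-10 non-phagocytic library 3 that for Treg uptake was called as well (-0.17, limma adjusted p 0.043). T cell marker sums were higher in the phagocytic IL-10 libraries, as given for Cyba, and their part was not tested.

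With IFN-γ the Rac2 libraries scattered. Tconv-phagocytic libraries held 158.4 and 151 TPM with BV421, and 283 and 242.1 TPM with Ax647. Treg-phagocytic libraries held 218.4 and 292.3 TPM with Ax647, and 317.9 and 227.2 TPM with BV421, and non-phagocytic ones 328.1, 224.2, 324 and 250.4 TPM. In the Tconv-phagocytic group the BV421 libraries were below all other IFN-γ libraries, and in the Treg-phagocytic group the dyes of the titles overlapped. Treg-phagocytic libraries differed from Tconv-phagocytic ones by 0.46 (95% confidence interval -0.04 to 0.97, limma adjusted p 0.228), and Tconv-phagocytic from non-phagocytic ones by -0.52 (95% confidence interval -1.02 to -0.02, limma adjusted p 0.762). Among Treg-phagocytic libraries Rac2 was 0.34 higher with IFN-γ than with IL-10 (SE 0.12, limma adjusted p 0.0534). That difference was called with median-of-ratios scaling (limma adjusted p 0.0273) and with factors from genes of at least 1 TPM in all libraries (limma adjusted p 0.0252), and was 0.10 without scaling (limma adjusted p 0.52). It was also called with a filter of 5 TPM (limma adjusted p 0.0381), and without IFN-γ Treg-phagocytic Ax647-1 (limma adjusted p 0.0104) or BV421-2 (limma adjusted p 0.0499). Without IFN-γ non-phagocytic library 2, Rac2 was also called higher in IFN-γ against IL-10 non-phagocytic libraries (0.36, limma adjusted p 0.0143) and against M0 (0.37, limma adjusted p 0.0177), where the full groups gave 0.26 for both (limma adjusted p 0.0978 and 0.103). Without scaling the full groups differed by -0.02 (limma adjusted p 0.873) and -0.00780 (limma adjusted p 0.962), so that the sign of both turned. Among Tconv-phagocytic libraries Rac2 differed by -0.06 between IFN-γ and IL-10 (limma adjusted p 0.797), and without scaling by -0.21 (limma adjusted p 0.372).

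Rac1, the relative of Rac2 found in most cells, was the reference for a ratio within each library. Rac1 itself moved with the cytokine. Its group means were 257.5 to 263.4 TPM with IFN-γ, 335.0 to 347.3 TPM with IL-10 and 318.1 TPM in M0, so the ratio reflects both genes. Rac2 stood at 0.815 ± 0.0274 (SD, n = 4) of Rac1 in IL-10 non-phagocytic libraries, 0.696 ± 0.0461 (SD, n = 4) with Tconv uptake and 0.709 ± 0.0381 (SD, n = 4) with Treg uptake. The phagocytic libraries did not overlap the non-phagocytic ones (log2 differences of -0.23 and -0.20, exact permutation p 0.0286 for each, adjusted 0.0786 over 22 tests). In the IFN-γ groups the ratio was 1.07 ± 0.179 (SD, n = 4) without uptake, 0.816 ± 0.273 (SD, n = 4) with Tconv and 1.03 ± 0.227 (SD, n = 4) with Treg uptake, and the 3 groups overlapped. Against IL-10, the ratio was higher with IFN-γ by 0.38 among non-phagocytic and by 0.51 among Treg-phagocytic libraries, without overlap (exact permutation p 0.0286 for each, adjusted 0.0786). Mean Rac2 itself was 281.7 TPM with IFN-γ and 283.2 TPM with IL-10 without uptake, and 264.0 and 243.3 TPM with Treg uptake. These higher ratios are thus not to be read as a rise of Rac2 alone. The ratio differed by 0.17 among Tconv-phagocytic libraries (exact permutation p 0.486, adjusted 0.594).

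**Figure D3:**
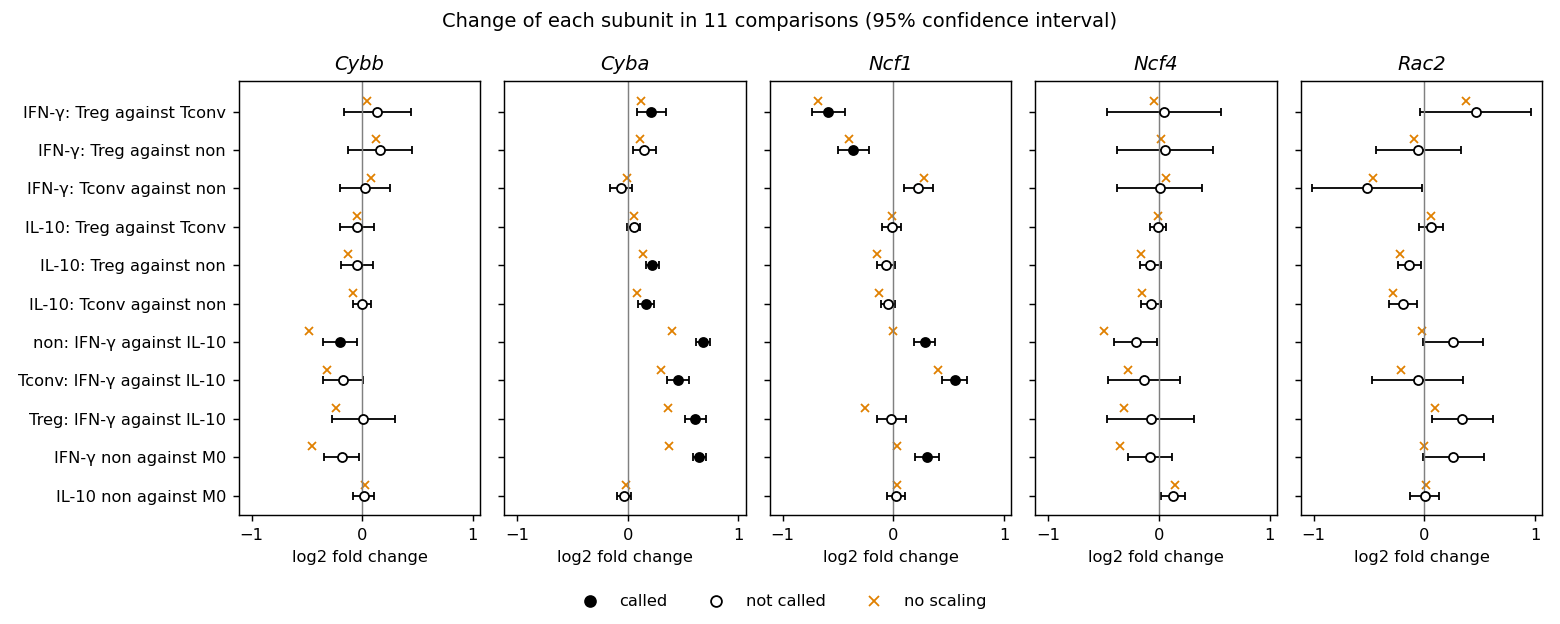
Log2 fold change of each gene in 11 comparisons (horizontal axis, with vertical position giving the comparison; bars are 95% confidence intervals of the fit). Filled points were called at an adjusted p under 0.05, open points were not, and crosses give the fit without scaling. Calls are in Cyba and Ncf1, with 1 in Cybb, and the crosses of the comparisons of IFN-γ with IL-10 or M0 lie to the left of the points.

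The members' counts of calls are given beside the share of all genes called. In IFN-γ Treg- against Tconv-phagocytic libraries 2 of 5 members were called, 1 higher and 1 lower, where 11.7% of all genes tested were called. Against non-phagocytic libraries it was 1 of 5 with Treg uptake (8% of all genes) and 0 of 5 with Tconv uptake (0.00734%, which is 1 gene by limma), where 2 of 5 members and 878 of all genes had an unadjusted p under 0.05. With IL-10, 0 of 5 members were called by limma for Treg against Tconv uptake (1.39% of all genes; 0 of 5 also at an unadjusted p under 0.05), 1 of 5 for Treg uptake against none (11.4%) and 1 of 5 for Tconv uptake against none (6.15%). Between IFN-γ and IL-10, 3 of 5 members were called among non-phagocytic (51.4% of all genes), 2 of 5 among Tconv-phagocytic (52.5%) and 1 of 5 among Treg-phagocytic libraries (38.3%), and 2 of 5 were called for IFN-γ non-phagocytic libraries against M0 (53.1%). For IL-10 non-phagocytic libraries against M0 it was 0 of 5 by limma (26.7% of all genes), and 1 of 5 at an unadjusted p under 0.05. Among the tests of whether an uptake effect differed between the cytokines, 1 of 5 members was called for Treg against Tconv (13.3% of all genes), 1 of 5 for Treg against none (9.33%) and 1 of 5 for Tconv against none (1.72%). The last was Cyba, whose effect of Tconv uptake differed by -0.23 between IFN-γ and IL-10 (SE 0.053, limma adjusted p 0.0399). That call was lost in 18 of 28 alternative fits, among them the fit without scaling (-0.09, limma adjusted p 0.352) and those that left out IFN-γ non-phagocytic 1, 2 or 4, IFN-γ Tconv-phagocytic BV421-2, Ax647-1 or Ax647-2, IL-10 non-phagocytic 1, 2 or 3, or IL-10 Tconv-phagocytic BV421-1, BV421-2 or Ax647-2. For Treg against Tconv uptake the Cyba difference of 0.16 between the cytokines (SE 0.063, limma adjusted p 0.12) was called with median-of-ratios scaling (limma adjusted p 0.0453) and without IFN-γ Tconv-phagocytic BV421-1 (limma adjusted p 0.0236). The median log2 change of the 5 members was 0.13 for IFN-γ Treg against Tconv uptake and 0.26 for IFN-γ against IL-10 without uptake, where the medians over all genes were 0.01 and -0.02. These 2 medians were the changes of Cybb and Rac2, which were 0.04 and -0.02 without scaling. For IFN-γ against IL-10 the members' median was -0.06 with Tconv and 0.01 with Treg uptake. The medians over all genes there were -0.03 and -0.07.

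By mean scaled TPM, Cyba was ordered IFN-γ Treg-phagocytic (2535), IFN-γ non-phagocytic (2282), IFN-γ Tconv-phagocytic (2189), IL-10 Treg-phagocytic (1659), IL-10 Tconv-phagocytic (1598), M0 (1457) and IL-10 non-phagocytic (1423). The steps between IFN-γ non- and Tconv-phagocytic libraries and between M0 and IL-10 non-phagocytic libraries were within the larger SD of the neighbours. Ncf1 was ordered IFN-γ Tconv-phagocytic (281.1), IFN-γ non-phagocytic (240.6), and then 5 groups between 186.9 and 197.5, IFN-γ Treg-phagocytic lowest, whose steps were all within the larger SD. For Cybb (198.2 to 227.4) and Ncf4 (194.1 to 223.4) no neighbours in the order differed beyond that SD. For Rac2 (220.8 to 310.3) the step from M0 to IL-10 Treg-phagocytic libraries did so.

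Genes that act around the oxidase were followed in lists chosen by function. Of 7 genes for assembly and partners of the membrane part, 2 were higher and 0 lower in IFN-γ Treg- against Tconv-phagocytic libraries (median 0.23), where 11.7% of all genes were called. They were Rap1a, a GTPase found with flavocytochrome b558 (0.33, SE 0.085, limma adjusted p 0.0405), and Arhgdib, which holds Rac in the cytosol in blood cells (0.27, SE 0.059, limma adjusted p 0.0239). Both calls were lost without scaling (0.24 and 0.18, limma adjusted p 0.0748 and 0.0891). Between IFN-γ and IL-10 non-phagocytic libraries, 2 of the 7 were higher and 4 lower, where 51.4% of all genes were called. Without scaling it was 1 and 6, beside 2369 higher and 5548 lower of all 13631 genes. Nrros, which limits the amount of gp91phox, stood at 52.9 ± 5.8 TPM (SD, n = 4) with IFN-γ and 169.9 ± 2.9 TPM (SD, n = 4) with IL-10, a change of -1.39 (SE 0.075, limma adjusted p 8.11e-07; -1.67 without scaling). Cybc1, a chaperone that gp91phox needs to mature, changed by -0.84 (SE 0.098, limma adjusted p 0.000104; -1.12 without scaling). Both genes act on the Cybb product, and Cybb itself changed by less, as given above. The list of other oxidases held 9 genes, of which 1, Noxo1, passed the filter, at group means of 1.2 to 3.1 TPM, and it was called in 0 comparisons by limma, with an unadjusted p under 0.05 in 2.

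Of 16 genes for kinases and exchange factors that act upstream, 0 were higher and 5 lower in IFN-γ Treg- against Tconv-phagocytic libraries (median -0.17), and 0 higher and 4 lower against non-phagocytic ones. Of all genes 11.7% and 8% were called in these comparisons, more of them lower than higher. Prkcd, the protein kinase C delta that phosphorylates p47phox, held 280.3, 317.7, 317.7 and 336.5 TPM in IFN-γ Treg-phagocytic libraries. It held 769, 1052, 926.1 and 890.4 TPM in Tconv-phagocytic and 880.9, 887.4, 754.3 and 851.4 TPM in non-phagocytic libraries. All Treg-phagocytic values were far below the rest, and in TPM as deposited near the 275.5 to 340.1 TPM of the group means of IL-10 and M0. After scaling the mean was higher in the IFN-γ Treg-phagocytic libraries (354.9) than in IL-10 non-phagocytic (257.7), IL-10 Tconv-phagocytic (263.9) or M0 libraries (310.5). The changes with Treg uptake under IFN-γ were -1.44 (SE 0.0995, limma adjusted p 0.000645) against Tconv-phagocytic and -1.39 (SE 0.087, limma adjusted p 0.000283) against non-phagocytic libraries. Prkcd rose by 1.84 (SE 0.058, limma adjusted p 3.62e-08) in IFN-γ against IL-10 non-phagocytic libraries, while Vav1, an exchange factor for Rac, changed by -0.95 (SE 0.049, limma adjusted p 6.29e-07). Without scaling these were 1.56 and -1.23. In that comparison 4 of the 16 were higher and 7 lower, where 51.4% of all genes were called, and without scaling 3 and 9. Vav2 (-0.90) in the comparison with Tconv-phagocytic libraries, and Syk, a kinase below phagocytic receptors, in that with non-phagocytic ones (-0.50, limma adjusted p 0.00218), were the other genes named by the rule.

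Of 11 transcription factors known to act on oxidase genes, 8 passed the filter. Over all genes tested, 11.7% were called in IFN-γ Treg- against Tconv-phagocytic libraries. Of the 8 factors 2 were higher and 1 lower there, and without scaling 0 and 3. The higher ones were Cebpa, a factor of myeloid differentiation (0.37, SE 0.071, limma adjusted p 0.0137), and Cebpb (0.20, limma adjusted p 0.0299), whose libraries overlapped and which was named after its values were seen. Both calls were lost without scaling (limma adjusted p 0.0708 and 0.305). The lower one was Irf1, a factor made in response to interferons, at 88.5, 114.7, 96.9 and 118.7 TPM in Treg-phagocytic and 199.5, 294.9, 244.5 and 236.3 TPM in Tconv-phagocytic libraries. The groups did not overlap, and the change was -1.12 (SE 0.141, limma adjusted p 0.00281). Against IL-10, Irf1 was higher with IFN-γ without uptake, by 1.81 (limma adjusted p 2.25e-08), with Tconv uptake, by 1.95 (limma adjusted p 4.21e-07), and with Treg uptake, by 0.84 (limma adjusted p 0.000501). Without scaling these were 1.53, 1.81 and 0.60, all called. Of 11 genes of LC3-associated phagocytosis, 0 were higher and 1 lower in IFN-γ Treg- against Tconv-phagocytic libraries, where 11.7% of all genes were called. It was Atg16l1, needed to attach LC3 to membranes, at 14.6 ± 1.9 TPM (SD, n = 4) with Treg and 33.8 ± 3.9 TPM (SD, n = 4) with Tconv uptake (-1.07, SE 0.112, limma adjusted p 0.00156).

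**Figure D4:**
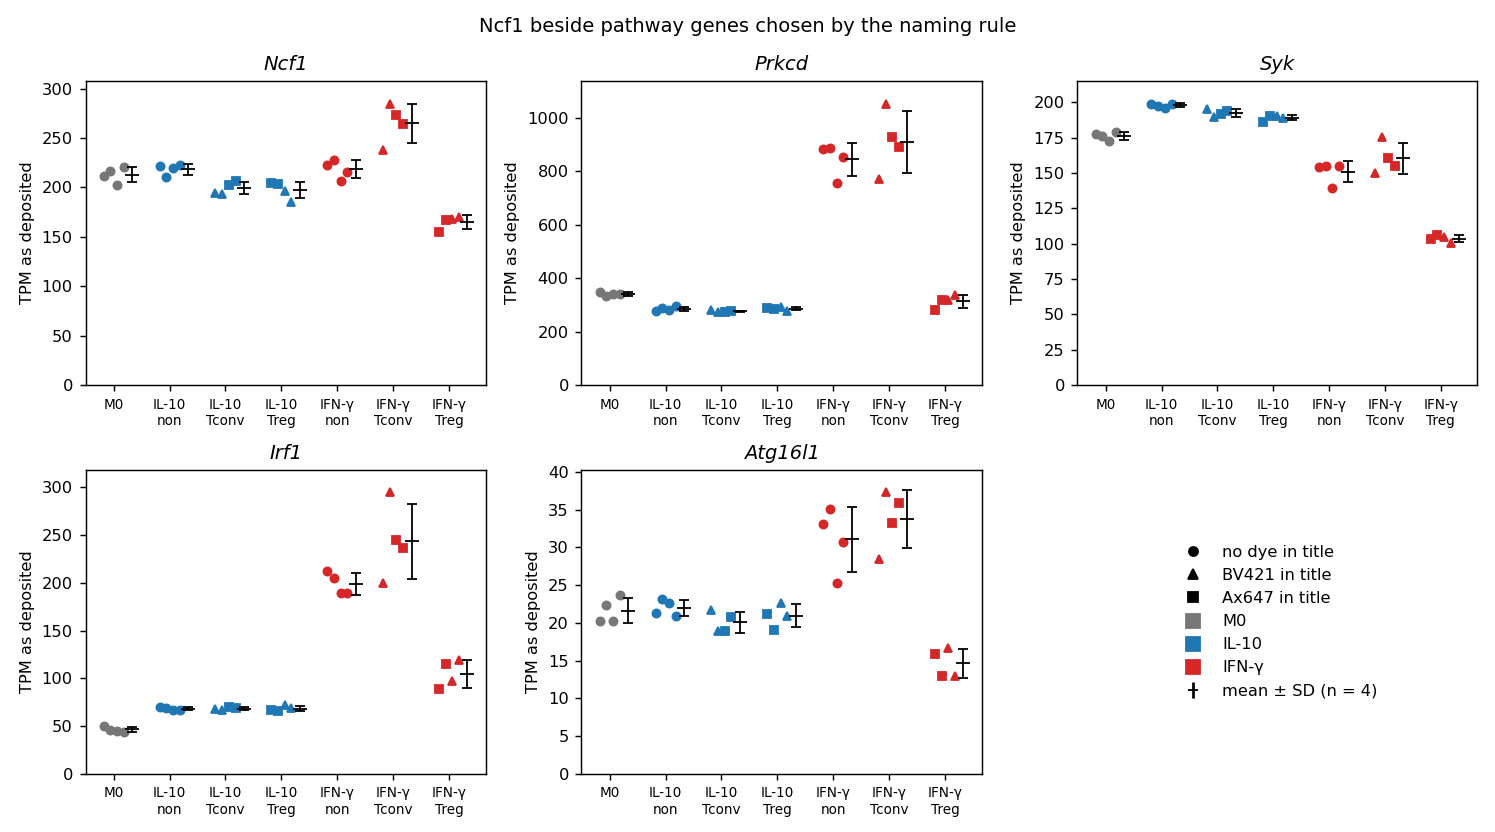
TPM as deposited of Ncf1 and of Prkcd, Syk, Irf1 and Atg16l1 in each of 28 libraries, by group, with the mean ± SD of 4 libraries in black. In each panel the 4 IFN-γ Treg-phagocytic libraries lie below the other 8 IFN-γ libraries, for Prkcd at 280.3 to 336.5 against 754.3 to 1052. The pathway genes shown were picked from those lower with Treg uptake under IFN-γ, so their common direction is not a result. Rap1a, Arhgdib and Cebpa, which were higher there, are not shown, nor are all of the lower ones.

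In IL-10 Treg- against Tconv-phagocytic libraries 0 of the 43 genes tested in these lists were called by limma, where 1.39% of all genes were, and 9 had an unadjusted p under 0.05. With IFN-γ it was 11 of 43, where 11.7% of all genes were called. For Treg uptake against none it was 8 of 43 with IL-10 (11.4% of all genes) and 9 of 43 with IFN-γ (8%). For Tconv uptake against none it was 4 of 43 with IL-10 (6.15%) and 0 of 43 by limma with IFN-γ (0.00734%). In these 13 and 4 of the 43 had an unadjusted p under 0.05. In IL-10 Treg-phagocytic against IL-10 non-phagocytic libraries, Rap1a was 0.28 higher (SE 0.061, limma adjusted p 0.0232) and Arhgdib 0.15 higher (SE 0.027, limma adjusted p 0.00808). These calls were both lost without scaling (limma adjusted p 0.0637 and 0.0826). Becn1, a part of the lipid kinase complex of autophagy, was changed there by -0.28 (SE 0.053, limma adjusted p 0.0131). IL-10 non-phagocytic libraries differed from M0 in Vav1 (0.61, limma adjusted p 5.08e-07), in Cybc1 (0.43, limma adjusted p 0.00391) and in Hvcn1, the proton channel that balances the charge moved by the oxidase (-0.62, limma adjusted p 5.57e-06). None of the 5 members was called there by limma, and their fold changes lay between -0.03 and 0.13.

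The 3 genes most like each member over the 28 libraries were sought by Pearson correlation of scaled log2 values among 8725 genes with a mean of at least 5 TPM. These are descriptions over libraries that share their groups, and they carry no test. For Ncf1 they were Rufy3 (r 0.96), Stx2 (r 0.96) and Rest (r 0.95). For Cyba they were Rpl22, Rps12 and Tyrobp (r 0.99 for each). The highest values were lower for Cybb (Nuak1, r 0.77), Rac2 (Timm10, r 0.76) and Ncf4 (Cryzl2, r 0.69). Among the members themselves the highest was 0.44, between Cyba and Ncf1, and the lowest -0.56, between Cybb and Ncf1, so the 5 genes did not follow 1 pattern.

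Cyba overlaps Gm20388, and Ncf1 overlaps Gtf2ird2, each on the other strand. The kit keeps strand, but whether the quantification used it is not given in the sources used here, so reads of these neighbours could be counted in either gene.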

How the data were processed

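RNA of mouse macrophages was sequenced in 28 libraries, 7 groups of 4. Per the labels' protocols, RNA was extracted with RNAiso PLUS, cleaned with NucleoSpin, and poly(A) RNA was used with the NEBNext Ultra II Directional kit, which keeps strand. The submitters' processing notes name STAR, RSEM and the build mm10. Per the file headers, the values deposited by the authors are TPM, with no read counts. Versions, filters and the strand setting are not given in the sources used here.

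Of 55487 gene IDs, 55141 were matched to a symbol (GENCODE vM21). Of 378 pairs of libraries, 0 held identical values, and no library was left out. TPM were divided by a trimmed mean of log2 ratios to a reference library (30% of ratios and 5% of levels trimmed at each end). The tests, over genes that reached 1 TPM in 4 or more libraries, used limma 3.58.1 (R 4.3.3) on log2(scaled TPM + 1), with lmFit and eBayes with trend, for 11 comparisons of groups and 3 differences of differences. A fold change on this scale understates that of low genes. On simulated data for the IFN-γ comparison of Treg with Tconv uptake (13631 genes), the fit recovered 27 of 100 genes with a log2 change of 0.5 and 74 of 100 with a change of 1, and called 11 unchanged genes. Members, lists and tests were chosen with earlier results of these data known, and the lists were edited again after the files were read. The reference of the scaling was also changed after member results had been seen under another form, in which factors came from 9723 genes with at least 1 TPM in all libraries. That form is kept among the alternatives, and its differing calls are given beside the results. Ratios were compared by exact permutation over libraries (Python 3.11.15, scipy 1.17.1). Of each list and comparison at most 2 called genes were eligible to be named, those with the largest change whose groups do not overlap and with a mean of at least 5 TPM in the higher group. Promoter windows are from RefSeq. Alternatives were other scalings, pseudocounts (0.1 and 5), filters, models of all libraries, dye, replicate blocks, a GC and length correction, and leaving out each library. For the list genes, only the fit without scaling was run, an alternative chosen after seeing the data. Some subunits of the oxidase and some genes of the lists are not reported here.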

Additional observations from a re-analysis of the deposited data

Results flagged for a closer look

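In 1 of 35 sets of 4 libraries (5 members in 7 groups) 1 library stood apart from the other 3 by a gap above Dixon's critical value for 4 samples, where about 1 in 20 sets does so by chance. It was IL-10 Treg-phagocytic BV421-2, with 266.8 TPM of Cybb against 213.6 to 221.8 TPM in the other 3.

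Of 15 tests of whether the effect of uptake on a member differed between IFN-γ and IL-10, 3 were called by limma. The effect of Treg against Tconv uptake on Ncf1 differed by -0.57, and Ncf1 was lower with Treg uptake in all 4 IFN-γ libraries. The effect of Treg uptake against none on Ncf1 differed by -0.30. The effect of Tconv uptake against none on Cyba differed by -0.23, with a call lost in 18 of 28 alternative fits.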

How the results depend on the processing

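Over 301 alternative counts of members called in the 14 comparisons, 236 were within 1.5 times the main count. Of 1505 alternative member fold changes, 51 lost a call, 42 gained one, 69 changed sign without a call in either fit and 1 turned a called direction, Ncf1 in IFN-γ against IL-10 without uptake and without scaling (-0.00240). The 198 alternative ratios each moved by less than 1 SD. For IFN-γ Treg against Tconv, 2 members became 1 without scaling, with pseudocount 0.1, without a filter and with the dye of library names as covariate, and 1 to 2 without 1 library. For IFN-γ Treg against none, 1 became 2 with median-of-ratios scaling, factors from genes of at least 1 TPM in all libraries, all 28 libraries with 1 variance or the GC and length correction, and stayed 1 without any library. For IFN-γ Tconv against none, 0 became 1 with all 28 libraries and 1 variance, and stayed 0 with variance weights. For IL-10 Treg against none, 1 became 4 without scaling and 1 to 2 without 1 library, and for IL-10 Tconv against none 2 without scaling, 0 without a filter and 0 to 1. For IFN-γ against IL-10, 1 became 2 with Treg uptake under every other scaling and a filter of 5 TPM, and 1 to 2 without 1 library, and without uptake 3 became 2 to 5. Against M0 the ranges without 1 library were 2 to 4 with IFN-γ and 0 to 1 with IL-10. For the difference of Treg against Tconv effects, 1 became 2 with median-of-ratios scaling or all 28 libraries with 1 variance, and 1 to 2 without 1 library. For that of Tconv against none, 1 became 2 with factors from genes of at least 1 TPM in all libraries, pseudocount 5, a filter of 5 TPM or all 28 libraries with 1 variance, 0 without a filter, with variance weights or the GC and length correction, and 0 to 2 without 1 library. The deviations of same-numbered libraries had correlations of at most 0.0854. From 0 to 3 of 4 libraries, by comparison, were closest to the library of their own number. Such low correlations over all genes cannot settle whether the numbers pair the samples. With a replicate block the count was 1 for IFN-γ Treg against Tconv (by titles, by library names, and with the GC and length correction), 0 for IFN-γ Treg against none (Ncf1, limma adjusted p 0.0614), 0 for IL-10 Tconv against none, 2 for IFN-γ against IL-10 with Treg uptake, 3 for IFN-γ against M0 (with Cybb, limma adjusted p 0.0343), 0 for the difference of Treg against none (Ncf1, limma adjusted p 0.0606) and 0 for that of Tconv against none (also with the GC and length correction). The cause of these changes was not tested. IFN-γ libraries are the shallowest.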
